A study of Mus musculus with 10 samples.

Results

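The resistin-like genes of the mouse, Retnlb, Retnla, Retnlg and Retn, were followed in the terminal ileum of stressed and control mice. The members were taken by gene symbol, and the family was chosen on the difference of Retnlb between stressed and control mice, which was already known. Of the 4 genes, 3 had a probe set that carries their symbol alone in the platform annotation, 1 probe set each (1418368_at for Retnlb, 1449015_at for Retnla and 1449182_at for Retn), and Retnlg was not analysed here. The table held 45101 probe sets, and 13666 genes were tested, the 3 measured members among them. Gene expression was measured on 1 Affymetrix array per mouse, and the values are log2 RMA values, a scale on which a step of 1 is a doubling.

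The stressed group was 5 male C57BL/6JJmsSlc mice that had gone through subchronic and mild social defeat stress as intruders, with retired male Slc:ICR mice of more than 5 months as residents. Contact was limited to 5 min from the first bite on day 1 and was cut by 0.5 min a day, down to 0.5 min on day 10. The control group was 5 unstressed male mice of the same strain. The labels give these mice as 7 weeks old, single-housed from the start and fed AIN-93G, and food was withheld for 3 h before the lower small intestine was dissected. How the control mice were kept during the 10 days is not given in the sources used here. Nothing in the labels gives litters or extraction batches, so the spread between mice may hold technical spread as well.

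Resistin-like molecules are small secreted proteins rich in cysteine. RELMβ, the product of Retnlb, is made by goblet cells of the gut, is induced in mice by bacterial colonisation and by the type 2 cytokines IL-4 and IL-13, and acts on bacteria near the epithelium. RELMα, the product of Retnla, is made by alternatively activated macrophages and other cells in type 2 responses, where IL-4 and IL-13 act through the transcription factor STAT6. RELMγ, the product of Retnlg, is known from bone marrow and neutrophils, and resistin, the product of Retn, is made by adipocytes in mice. In a RefSeq gene table (GRCm38.p6) Retnlb, Retnla and Retnlg follow each other on chromosome 16 with 0 genes between them, and Retn is on chromosome 8.

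Promoter windows of 3 of the 4 genes were found in RefSeq, those of Retnla, Retnlg and Retn, and are shown because IL-4 and IL-13 are known to act on Retnla through STAT6. The windows are the 250 bases before the annotated start, on the + strand of GRCm38.p6. Capitals mark matches to a STAT6-type sequence (TTC and GAA with 4 bases of any kind between them, either strand), a TATA-type sequence (TATAAA, gene strand, a search added after the windows had been seen) or an NF-kB-type sequence (GGGA, any base, TT, any base, CC, either strand). The windows are chr16:48842359-48842608 for Retnla, chr16:48872358-48872607 for Retnlg and chr8:3655520-3655769 for Retn.
Retnla: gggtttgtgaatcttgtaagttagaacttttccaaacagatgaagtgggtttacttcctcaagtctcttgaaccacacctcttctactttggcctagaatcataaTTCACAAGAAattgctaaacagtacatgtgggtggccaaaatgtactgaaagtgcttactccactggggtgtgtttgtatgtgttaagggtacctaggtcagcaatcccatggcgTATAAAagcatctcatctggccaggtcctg
Retnlg: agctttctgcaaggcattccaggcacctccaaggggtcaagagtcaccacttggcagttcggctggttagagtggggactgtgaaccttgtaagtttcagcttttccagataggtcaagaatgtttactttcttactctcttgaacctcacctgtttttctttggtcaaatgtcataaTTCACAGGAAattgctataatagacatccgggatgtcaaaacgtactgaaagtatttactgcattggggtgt
Retn: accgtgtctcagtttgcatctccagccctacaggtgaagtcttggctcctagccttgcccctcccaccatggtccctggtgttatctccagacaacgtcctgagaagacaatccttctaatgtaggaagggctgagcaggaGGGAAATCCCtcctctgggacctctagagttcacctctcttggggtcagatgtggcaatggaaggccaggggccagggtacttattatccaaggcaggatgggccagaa
Retnla held the STAT6-type match TTCACAAGAA at positions -145 to -136 from the start and TATAAA at -30 to -25. Retnlg, its neighbour, held TTCACAGGAA at -72 to -63 in the same surroundings. The best local alignment of the Retnla and Retnlg windows ran over 178 columns with 77.5% identical, against 11 columns for Retnla with Retn. Retn held an NF-kB-type match on the reverse strand at -109 to -100 and no STAT6-type match. Among 32851 promoter windows of this length, 5.85% held the STAT6-type sequence, 0.980% the NF-kB-type and 7.59% TATAAA. The CDX-type sequence CAATAAA (4.20% of windows) and the KLF-type sequence GGGTGNGG (14.9%), both searched on either strand, were in none of the 3. The motifs do not overlap in these windows, and a match describes letters, not binding.

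Control mouse 1 and stressed mouse 4 differed from their groups in genes of intestinal position, and both were the mice with the highest Retnlb of their group. Control mouse 1 correlated with the other arrays at 0.918 to 0.947 across genes, where those correlated with one another at 0.975 to 0.995. Car1, a carbonic anhydrase of the large intestine, was at 13.32 in stressed mouse 4 against 4.95 to 7.41 in the other stressed mice. It was at 14.17 in control mouse 1 against 4.95 to 7.06 in the other controls. Aqp8, a water channel of colonic epithelium, was at 7.26 in stressed mouse 4 (4.15 to 4.44 in the other stressed mice) and at 7.50 in control mouse 1 (4.22 to 4.49 in the other controls). Of 12 large intestine genes on the array, stressed mouse 4 was the highest stressed mouse in 5 and control mouse 1 the highest control in 6. Some of these were under the floor of 4.15, such as Hoxd11 at 3.23 in control mouse 1 against 3.17 in control mouse 2. Mptx1 went the other way in control mouse 1, at 9.12 against 11.52 to 11.84 in the other controls. Aqp4 was at 7.21 in stressed mouse 4, within the 6.80 to 7.62 of the other stressed mice. The mean of the 5 of these genes that were tested ran over 7.11 to 10.10 in stressed and 7.02 to 10.33 in control mice, with those mice at the upper ends.

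The ileal genes set these mice apart from each other. Fabp6, the ileal bile acid binding protein, was at 13.95 in stressed mouse 4 and at 13.98 to 14.10 in the other stressed mice, whereas control mouse 1 had 7.88 against 13.88 to 13.93 in the other controls. The ileal label therefore held for stressed mouse 4 by this gene, with large intestine genes present as well, and went against control mouse 1.

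Retnlb was the member with the wide difference. It was at 5.23, 5.63, 3.72, 7.58 and 3.21 in stressed mice 1 to 5, and at 10.41, 8.95, 7.80, 8.41 and 8.12 in control mice 1 to 5. Every stressed mouse was below every control mouse, though only 0.22 separated stressed mouse 4 from control mouse 3. The values in stressed mice 3 and 5 lay below 4.15, the level under which probe sets were left out as low, and RMA values that close to background understate a difference.

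The stressed mice spread more widely than the controls. The group means of Retnlb were 5.07 ± 1.72 in stressed mice and 8.74 ± 1.02 in control mice (SD, n = 5 each). Stressed minus control was -3.67 ± 0.76 (SE), a level 12.7-fold lower in stressed mice. Without control mouse 1 the control mean was 8.32 ± 0.49 (SD, n = 4) and the difference -3.25 ± 0.70 (SE), or 9.51-fold lower. The SD of the stressed mice was 1.68 times that of the controls with all 10 arrays. It was 3.52 times that of the 4 controls without control mouse 1, and 2.38 times without control mouse 1 and stressed mouse 4. Ordered by this difference, Retnlb stood at place 1 from the lowest end of all 13666 genes, with all 10 arrays, without control mouse 1, and without control mouse 1 and stressed mouse 4. These values are a description, since the family was proposed for them. In bulk tissue fewer cells that make a transcript and less RNA per cell cannot be told apart.

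Retnla, the macrophage-associated member, showed a smaller difference. Its values were 6.97, 6.45, 6.90, 7.20 and 6.17 in stressed mice 1 to 5, and 9.96, 7.67, 7.19, 7.38 and 7.51 in control mice 1 to 5. The groups met at stressed mouse 4 (7.20) and control mouse 3 (7.19), and control mouse 1 stood above all other mice. Stressed minus control was -1.20 ± 0.46 (SE) over means of 6.74 ± 0.42 in stressed and 7.94 ± 1.14 in control mice (SD, n = 5 each), or 2.30-fold lower. Without control mouse 1 the control mean was 7.43 ± 0.20 (SD, n = 4), and the difference was -0.70 ± 0.19 (SE), or 1.62-fold lower.

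Retn, the adipocyte member, had overlapping groups. It was at 6.11, 6.63, 6.77, 7.04 and 7.18 in stressed mice 1 to 5, and at 7.54, 6.47, 6.82, 6.75 and 6.28 in control mice 1 to 5. The means were 6.74 ± 0.42 in stressed and 6.77 ± 0.48 in control mice (SD, n = 5 each), a difference of -0.03 ± 0.25 (SE), and it was 0.17 ± 0.19 (SE) without control mouse 1. Both differences were smaller than the spread within the groups, and the direction of Retn was not settled, since it also turned without stressed mouse 1 (0.13), without stressed mouse 2 (0.0018) and between medians (0.02).

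**Figure D1:**
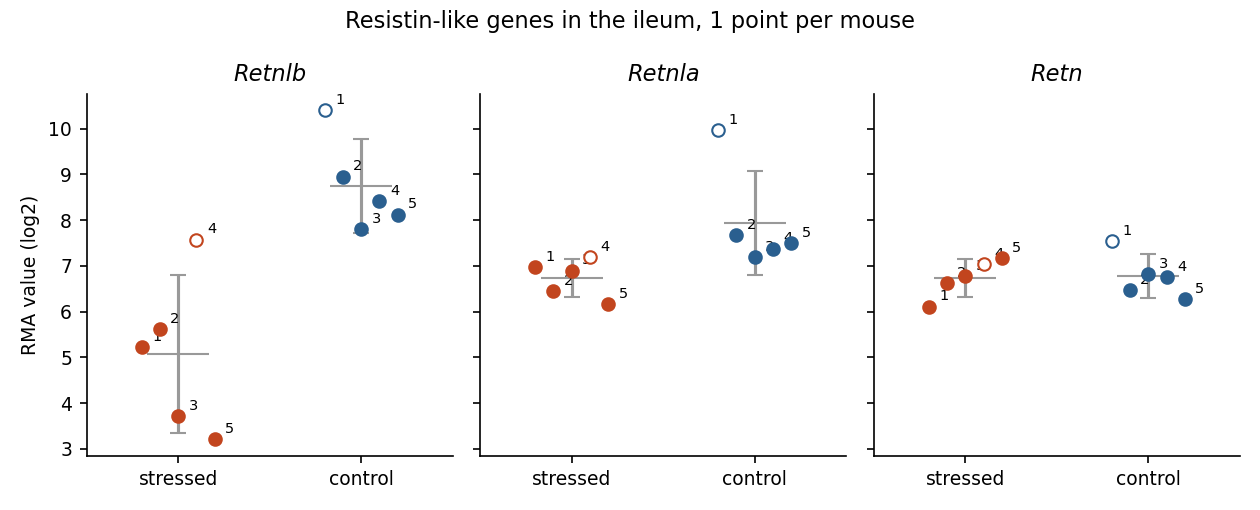
RMA values (log2) of Retnlb, Retnla and Retn in 5 stressed and 5 control mice. Each point is a mouse with its number, grey bars are means with SD, and open points are stressed mouse 4 and control mouse 1; the groups are apart for Retnlb alone, by 0.22.

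Across the whole table, limma called 0 of 13666 genes at a Benjamini-Hochberg adjusted p under 0.05 with all 10 arrays (0%, with 1069 genes or 7.82% at an unadjusted p under 0.05), and it called 0 of the 3 members. Without control mouse 1 it called 109 genes (0.798%), of which 73 were lower (0.534%), and again 0 members. Groups that did not overlap, with all stressed mice below all control mice, were found in 1.12% of genes with 10 arrays and in 2.72% without control mouse 1, and Retnlb was the 1 member among them both times. With all stressed above all control mice there were 1.16% and 4.51% of genes, and 0 members. Since this contrast was known when the members were chosen, nothing is read from these counts.

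Leaving out control mouse 1 and stressed mouse 4, the mice with large intestine genes, takes the highest Retnlb value from each group, and dropping stressed mouse 4 can only widen the difference. Without both, Retnlb was at 3.21 to 5.63 in 4 stressed and 7.80 to 8.95 in 4 control mice, a difference of -3.88 ± 0.48 (SE), 14.7-fold lower, while Retnla differed by -0.81 ± 0.18 (SE) and Retn by 0.09 ± 0.20 (SE). In these 8 arrays limma called 6 genes (0.0439%), all lower in stressed mice. They were Retnlb, B3galt5, Slc23a4, Nfkbiz, Igkv6-14 and Mfsd2a, named here after their values had been seen, and nothing is read from the call of Retnlb or from the size of its difference there. Without these mice the stressed values of Retnla, up to 6.97, no longer reached those of the controls, from 7.19 on, as in 3.11% of all genes (4.81% had all stressed above all control mice). Only stressed mouse 4 had reached a control in Retnla, so leaving it out fixed this in advance.

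**Figure D2:**
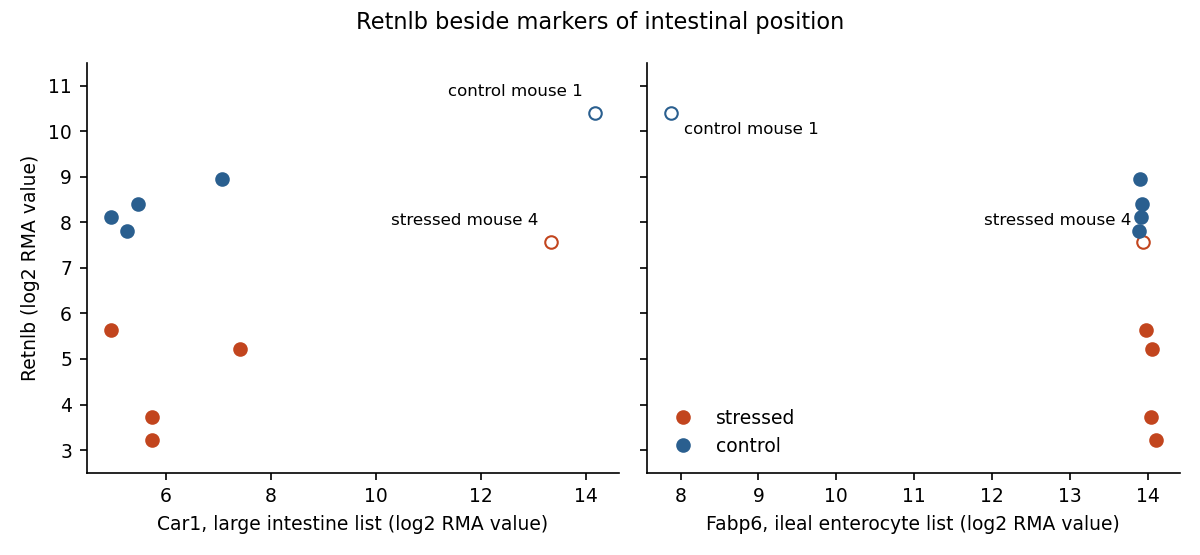
Retnlb (y axis) against Car1 and Fabp6 (x axes), all as log2 RMA values, 1 point per mouse. Open points are stressed mouse 4, with high Car1 and Fabp6 at 13.95, and control mouse 1, with high Car1 and Fabp6 at 7.88; among the other mice the stressed points lie at 3.21 to 5.63 and the control points at 7.80 to 8.95.

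Goblet cell genes, which mark the cells that make RELMβ, had a median difference near that of all genes. All 14 goblet cell genes on the array were tested. Limma called 0 of them with either set of arrays, and 7 were higher and 7 lower without control mouse 1. Their median difference was 0.02, against 0.03 over all genes (-0.06 against 0.00 with 10 arrays). Muc2, the main secreted mucin, was at 12.02 ± 0.39 in stressed and 12.18 ± 0.73 in control mice (SD, n = 5 each), and its control mean was 11.87 ± 0.23 (SD, n = 4) without control mouse 1, so its direction turned. Tff3, a trefoil peptide of goblet cells, was at 13.82 ± 0.02 in stressed and 13.67 ± 0.21 in control mice (SD, n = 5 each). The mean over the list was 11.17, 11.18, 11.04, 11.18 and 10.996 in stressed mice 1 to 5 and 11.09 to 11.14 in controls 2 to 5, with control mouse 1 at 11.49. Stressed mice 3 and 5, which had the lowest Retnlb, were below every control in this mean, and the part of this in the Retnlb values was not tested.

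Of 17 genes of type 2 cytokine signalling on the array, 11 were tested, since Il4, Il5, Il25, Tslp, Il13ra2 and Gata3 had means under the floor of 4.15. Ccl17, a chemokine that draws Th2 cells, was at 4.76 to 5.16 in stressed mice and at 5.22 to 6.15 in control mice, with control mouse 1 the lowest control. Over the 9 arrays Ccl17 fell by 0.83 ± 0.13 in stressed mice (SE), with a limma adjusted p of 0.0245. With 10 arrays it differed by -0.71 ± 0.16 (SE, limma adjusted p = 0.302). The list had a median difference of -0.10 without control mouse 1, with 4 genes higher and 7 lower. Il13, which encodes the cytokine known to induce Retnlb, was tested at 5.13 to 5.34 in stressed and 4.82 to 5.26 in control mice, a range close to the floor.

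Genes of alternatively activated macrophages, the cells known for Retnla, were not called. Of 9 tested genes of that list, 4 were higher and 5 lower without control mouse 1, with a median difference of 0.00 (1 higher and 8 lower with 10 arrays, median -0.15). Mrc1, the mannose receptor, was at 6.96 ± 0.15 in stressed and 6.99 ± 0.20 in control mice, and Cd163, a scavenger receptor, at 6.04 ± 0.20 in stressed and 5.98 ± 0.41 in control mice (SD, n = 5 each). Chil3 and Arg1, markers often used with Retnla, had means under the floor. The mean of the macrophage list was 6.72 in control mouse 1, against 6.10 to 6.30 in the other controls and 5.96 to 6.26 in stressed mice, and that mouse was also the highest for Retnla.

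Neutrophil genes were mostly near background, with 6 of 13 tested. Ltf, the lactoferrin gene, was at 4.11 ± 0.13 in stressed mice (SD, n = 5) and at 4.72 ± 0.21 in controls 2 to 5 (SD, n = 4). Over these 9 arrays it fell by 0.61 ± 0.11 in stressed mice (SE), with a limma adjusted p of 0.0330. The stressed mean lay under the floor of 4.15, and Ltf passed the filter through controls 2 to 5, so nothing is read from this call. With 10 arrays Ltf differed by -0.39 ± 0.22 (SE, limma adjusted p = 0.734), and control mouse 1 had the lowest value of all, 3.59. All 6 tested genes were lower in stressed mice in either fit, with a median of -0.24 without control mouse 1.

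Antibacterial and inducible genes of the epithelium, the function that RELMβ belongs to, were lower in 15 of 18 tested without control mouse 1. Their median difference was -0.36, against 0.03 over all genes. This list, like the others, was chosen with earlier results of these data known, so its counts and calls are a description. The 3 genes called without control mouse 1 fell (0.534% of all genes were called lower). They were Fut2, a fucosyltransferase of the epithelial surface (-2.56 ± 0.34, SE, limma adjusted p = 0.0184), Duoxa2, the maturation factor of an epithelial oxidase (-1.98 ± 0.27, SE, limma adjusted p = 0.0184), and Nos2, the inducible nitric oxide synthase (-0.67 ± 0.11, SE, limma adjusted p = 0.0301). With 10 arrays 0 were called and 11 of 18 were lower, with limma adjusted p of 0.0605 for Fut2, 0.429 for Duoxa2 and 0.599 for Nos2. Saa3, which is in this list, is described with the genes most like Retnlb. Of the 4 genes listed as receptors or partners of resistin, 0 were called. Cap1, which binds resistin in human cells, was at 9.29 ± 0.23 in stressed and 9.34 ± 0.13 in control mice, and Ror1, a receptor tyrosine kinase that resistin binds in mouse adipocyte precursors, at 5.54 ± 0.17 in stressed and 5.37 ± 0.66 in control mice (SD, n = 5 each). B cell and Peyer patch genes were lower in all 6 tested in either fit. Of these Pou2af1, a coactivator of B cells, was called without control mouse 1, with a difference of -1.28 ± 0.24 (SE, limma adjusted p = 0.0372), against -0.77 ± 0.49 (SE, limma adjusted p = 0.770) with 10 arrays. The mean over the 6 was 5.01 to 5.26 in stressed mice and 5.33 to 6.70 in controls 2 to 5, with control mouse 1 at 4.73, and its part in the values of the members was not tested. In the ileal enterocyte list 2 of 10 were called without control mouse 1, both higher. They were Fgf15, an ileal hormone of bile acid control (1.73 ± 0.32, SE, limma adjusted p = 0.0347), and Cubn, the receptor of vitamin B12 uptake (0.70 ± 0.11, SE, limma adjusted p = 0.0245). With 10 arrays their limma adjusted p were 0.373 for Fgf15 and 0.60 for Cubn. In the 8 arrays without control mouse 1 and stressed mouse 4, limma called 0 genes of the 10 lists.

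The genes whose pattern was most like that of Retnlb were sought by Pearson's r, as a description with no test. The search covered the tested genes other than the members, with predicted and clone-named transcripts passed over. Over the 10 arrays the genes most like Retnlb were Saa3 (0.97), Capg (0.96), Mal (0.95), Dmbt1 (0.94), Lrrc42 (0.93) and Slc9a3 (0.92). Without control mouse 1 they were Orai1 (0.97), Capg (0.97), Lrrc42 (0.96), Saa3 (0.96), Aldh1l1 (0.95) and B3gnt3 (0.94). Deviations from the group means, which take out the difference between groups, gave Slc22a21 (0.96), Klf12 (0.96), Tnpo2 (0.96), Mrtfb (0.95), Saa3 (0.95) and Orai1 (0.95) over the same 9 arrays. All points share the arrays and the high value of stressed mouse 4. Among these genes Dmbt1 encodes a mucosal protein that binds bacteria, Slc9a3 a sodium and proton exchanger of the brush border, B3gnt3 a glycosyltransferase, and Klf12 and Mrtfb regulators of transcription.

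Saa3, a serum amyloid A gene, was in each of the 3 sets. It was at 6.20, 6.91, 5.91, 7.98 and 5.64 in stressed mice 1 to 5, and at 9.30, 8.44, 7.40, 7.83 and 7.39 in control mice 1 to 5. The stressed mice had the same order in Saa3 as in Retnlb, from mouse 4 at the top through mice 2, 1 and 3 to mouse 5. Capg and Orai1 had this order too. These genes were picked for their likeness to Retnlb, so nothing is read from the shared order. Capg, an actin-capping protein, was at 6.18 to 7.06 in stressed and 7.00 to 7.52 in control mice. Orai1, a calcium channel subunit, was at 7.34 to 7.72 in stressed and 7.23 to 7.81 in control mice. Orai1 was lowest of all in control mouse 1, where Retnlb was highest. Saa3, Capg and Orai1 were called neither with 10 arrays nor without control mouse 1 (Saa3 differed by -1.54 ± 0.47 and by -1.24 ± 0.41, SE).

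**Figure D3:**
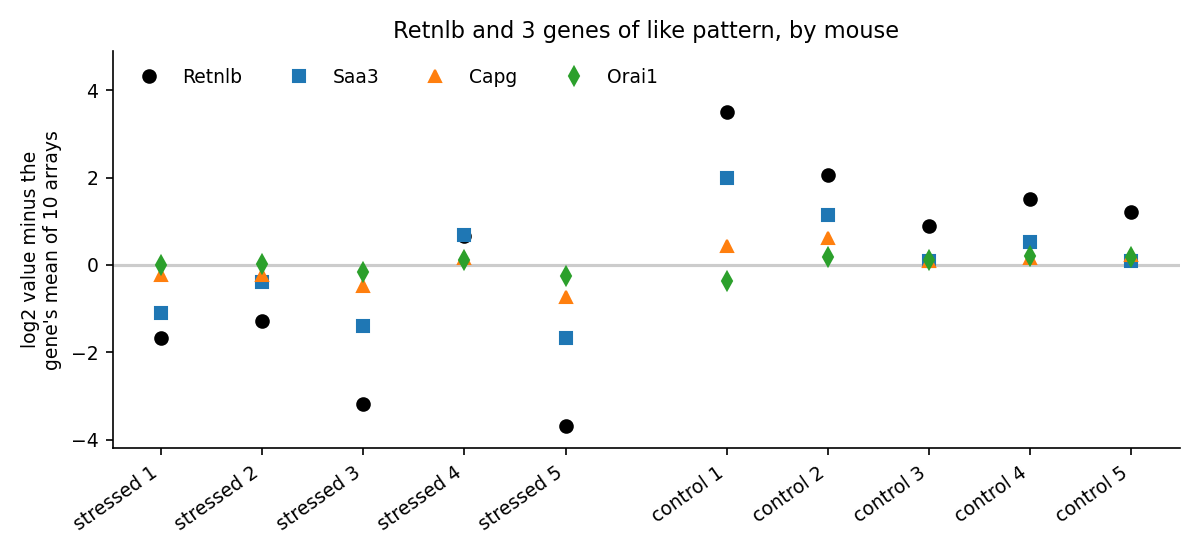
Values of Retnlb, Saa3, Capg and Orai1 in each mouse, as log2 differences from the gene's own mean over 10 arrays. The 5 stressed mice are left of the 5 control mice. Saa3, Capg and Orai1, picked for their likeness to Retnlb, have its order among the stressed mice, and Orai1 goes the other way in control mouse 1.

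The members followed each other only in part. Retnlb and Retnla correlated at 0.87 over the 9 arrays without control mouse 1 and at 0.66 after the group means were taken out, and Retnlb and Retn at -0.27 and -0.12, given as a description over the same 9 mice. Genes most like Retn over the 9 arrays were Slc25a13 (0.97), Hspb11 (0.96) and Zfand6 (0.96), and by deviations from the group means Aldh3a2 (0.99), Slc25a13 (0.98) and Acadm (0.97). Slc25a13 encodes a mitochondrial aspartate and glutamate carrier, Aldh3a2 a fatty aldehyde dehydrogenase and Acadm an enzyme of fatty acid oxidation. Genes most like Retnla were Arhgdib (0.93), Ncf1 (0.91) and Capg (0.90), of which Ncf1 encodes a subunit of the phagocyte oxidase. Over the 9 arrays Arhgdib fell by 0.61 ± 0.12 in stressed mice (SE), with a limma adjusted p of 0.0459. With 10 arrays it differed by -0.57 ± 0.12 (SE, limma adjusted p = 0.301). Arhgdib was picked for its likeness to Retnla over the same 9 arrays, and that likeness contains the difference between groups. Nothing is read from its call. With the group means taken out the genes most like Retnla were Klhl4 (0.97), Gpr137b (0.96) and Gypc (0.96). Over 10 arrays they were Tspan1 (0.97), S100a16 (0.96) and Fam162a (0.96) for Retnla, and Slc25a13 (0.98), Zfand6 (0.97) and Plgrkt (0.96) for Retn.

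Since resistin is an adipocyte product in mice, adipocyte genes were set beside Retn. Of 10 on the array 9 were tested, limma called 0, and without control mouse 1 all 9 were higher in stressed mice, with a median difference of 0.37 (7 of 9 and 0.07 with 10 arrays). Adipoq, the adiponectin gene, was at 6.83, 7.51, 8.00, 8.38 and 8.28 in stressed mice 1 to 5, and at 9.49, 7.74, 7.13, 7.62 and 6.08 in control mice 1 to 5. Fabp4, a fatty acid binding protein of adipocytes, was at 9.70 ± 0.36 in stressed and 9.63 ± 0.70 in control mice (SD, n = 5 each). Control mouse 1 was the highest control in all 10 adipocyte genes and the highest of all mice in Retn, and the part of adipocyte RNA in the values of Retn was not tested beyond the relation that follows.

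Across the 9 mice other than control mouse 1, Retn and the adipocyte list mean had a Pearson r of 0.77 with a 2-sided exact permutation p of 0.0158, or 0.0792 adjusted over 20 relations. Spearman's rank correlation was 0.65 with an exact permutation p of 0.0666 (0.253 adjusted), and r was 0.66 without control mouse 5 and stressed mouse 4, the mice farthest from the median of the list mean. The relation thus failed the correction, and r was 0.79 with the group means taken out. Retn and the ileal enterocyte list had an r of 0.74 (exact permutation p = 0.0233, adjusted 0.0932) and a Spearman rank correlation of 0.63 (exact permutation p = 0.0760, adjusted 0.253), with r at 0.58 without stressed mice 3 and 5. It was 0.84 with the group means taken out and -0.49 with control mouse 1 included, so its sign turned over all 10 mice. The 20 relations were those of Retn and of Retnla with the 10 list means, all added after the values had been seen. Relations of Retnla with smaller p were among them, and these lower the adjusted p of Retn.

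For Retnla such relations contain the difference between groups that was known when the family was chosen, so r is given with no p. It was 0.87 with the type 2 list over the 9 mice and 0.75 with the group means taken out, and it was 0.26 with control mouse 1 included, so it did not hold over all 10 mice. Without control mice 2 and 5, the farthest from the median of that list, it was 0.89. With the ileal enterocyte list it was -0.83 over the 9 mice, -0.63 with the group means taken out and -0.96 with control mouse 1 included, and -0.67 without stressed mice 3 and 5. With the macrophage list it was 0.65 over the 9 mice and 0.01 without stressed mice 2 and 5, so over the 9 mice it rested on these mice. It was 0.68 with the group means taken out and 0.92 with control mouse 1 included. With the epithelial antibacterial list r was 0.79 over the 9 mice, above that with the macrophage list. There it was 0.41 with the group means taken out, -0.26 with control mouse 1 included, and 0.51 without control mouse 2 and stressed mouse 5.

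**Figure D4:**
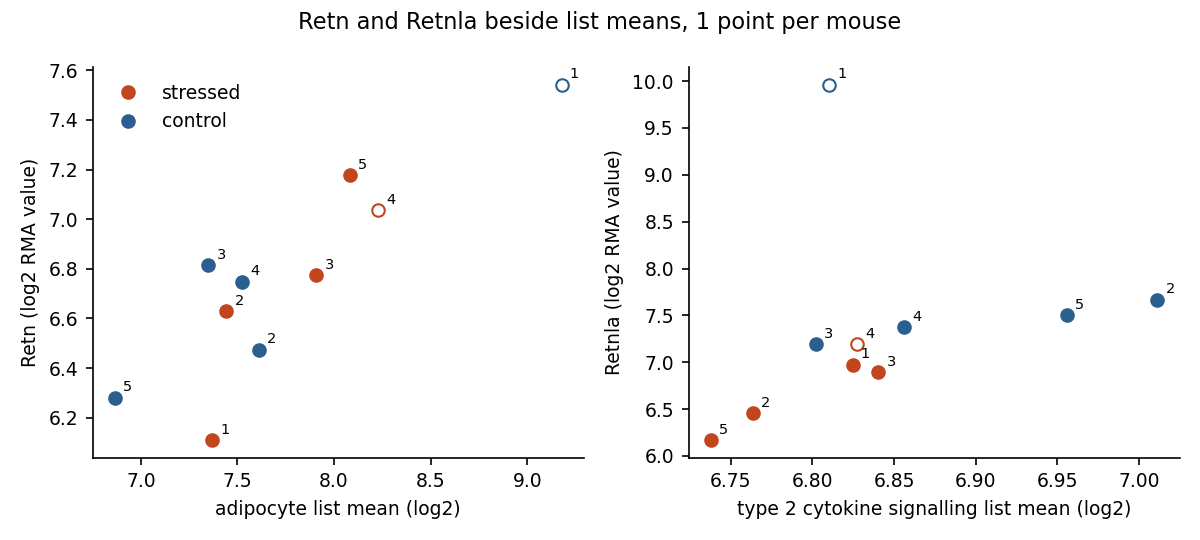
Retn against the adipocyte list mean (left) and Retnla against the type 2 cytokine signalling list mean (right), log2 scales, 1 numbered point per mouse. Open points are stressed mouse 4 and control mouse 1; control mouse 1 lies at the top of both panels, at 7.54 for Retn and 9.96 for Retnla.

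Leaving out each mouse in turn moved the difference of Retnlb between -4.29 (without stressed mouse 4) and -3.20 (without stressed mouse 5). That of Retnla lay between -1.39 and -0.70, and the value without control mouse 1 was -0.70. Retn lay between -0.15 and 0.17, on both sides of 0.

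**Figure D5:**
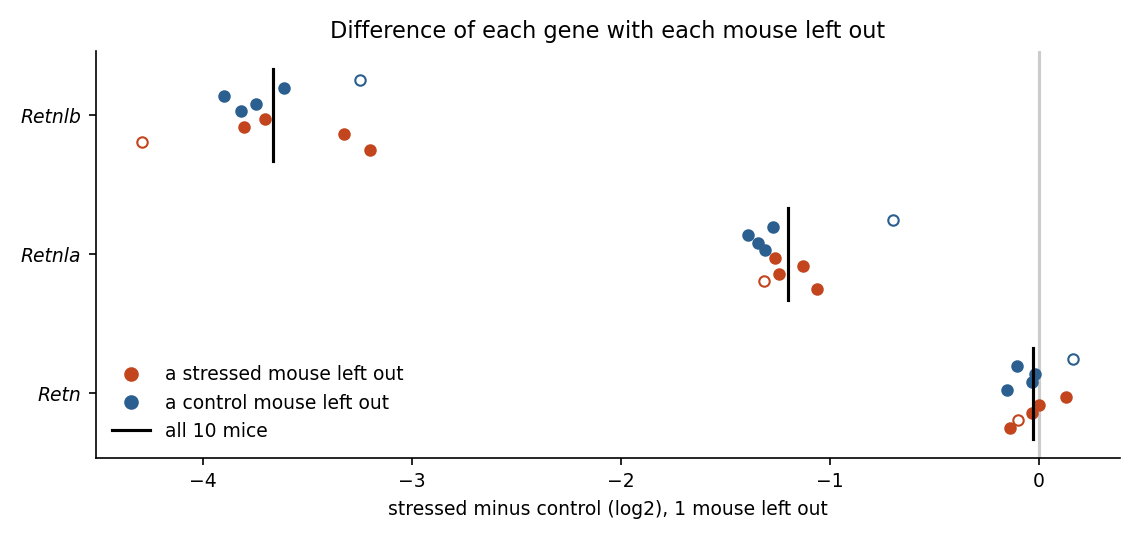
Stressed minus control (x axis, log2) of Retnlb, Retnla and Retn with each mouse left out in turn, 1 point per mouse left out, and a black line for all 10 mice. Open points leave out stressed mouse 4 or control mouse 1; Retnlb stays between -4.29 and -3.20, and Retn crosses 0.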

How the data were processed

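Ileum RNA (100 ng per mouse) of 5 stressed and 5 control mice was labelled with biotin and measured on 1 array each. Titles gave the groups. The authors deposited log2 values per probe set made with RMA, per the submitters' processing notes. The software is not given in the sources used here, base 2 was taken from the range of 1.22 to 14.4, and array medians lay at 4.78 to 4.82. RMA gives all arrays 1 distribution, so changes in total RNA are not seen. No read depth exists for arrays, and their number limits the precision.

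Of 45101 probe sets, 64 controls, 932 with several symbols and 9160 with none were set aside, and 0 symbols changed on matching 34741 Entrez identifiers to RefSeq. The lowest 40 percent by mean were left out (floor 4.15), and the probe set with the highest mean stood for each gene, leaving 13666. Groups were compared with limma 3.58.1 in R 4.3.3 (lmFit, eBayes, Benjamini-Hochberg, adjusted p under 0.05), with no replicate block, and tested on simulated data. For the members no p is given. Relations across mice, added after the values had been seen, had exact permutation tests over all pairings.

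The members, lists and alternatives were chosen with earlier results of these data known. Genes were named as follows: the members; from each of 10 lists the genes called in either fit (up to 4) or else its first 2 tested; and the 6 genes most like Retnlb and 3 most like Retnla and Retn by Pearson's r, over 10 arrays, 9 arrays and by deviations from group means. In the search for like genes, predicted and clone-named transcripts were passed over. Promoter windows were those of RefSeq.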

Additional observations from a re-analysis of the deposited data

Results flagged for a closer look

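Single mice stood far from the rest of their group in 19 of the 96 sets of 5 values looked at (48 genes in 2 groups), where chance gives about 1 in 20, and 17 of the 19 were control mouse 1. Among the members this was Retnla at 9.96 in control mouse 1. Control mouse 1 was also high for Car1 (14.17), Aqp8 (7.50), Cd163 (6.70), Lrrc42 (8.51), Klf12 (6.39), Tnpo2 (6.93), Mrtfb (9.20), Tspan1 (12.36), S100a16 (10.01), Fam162a (11.63), Gpr137b (7.09) and Acadm (10.95). It was low for Tff3 (13.30), Cubn (7.18), Orai1 (7.23) and Aldh1l1 (6.78). The remaining values were those of stressed mouse 4, at 7.26 for Aqp8 and 10.28 for Fam162a, both high. The genes were not picked at random, since several were chosen as markers or for their likeness to a member.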

How the results depend on the processing

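Each alternative value of a member's difference was set against its difference over all 10 arrays. The yardstick was the SD between mice within groups, 1.42 for Retnlb, 0.86 for Retnla (with control mouse 1 in it) and 0.45 for Retn. No alternative moved a difference by more than that SD. There were 23 alternatives for Retnlb (-4.29 to -2.78), 15 for Retnla (-1.39 to -0.61) and 15 for Retn (-0.15 to 0.24, 9 below 0 and 6 above). The -2.78 was without control mouse 1 and stressed mouse 5. For Retnla the value without control mouse 1 was -0.70, with array weights -0.81, and between medians -0.61. The count of called genes with 10 arrays, 0, was 41 with array weights, 2 with the mean of a gene's probe sets and 2 without stressed mouse 2, and ranged from 0 to 109 over the mice left out in turn, 109 being without control mouse 1. Without control mouse 1 the count of 109 ranged from 6 to 154 over the other mice: 19, 16 and 58 without control mice 2, 3 and 4, and 32, 21, 6 and 14 without stressed mice 1, 3, 4 and 5. The cause was not tested. Same-numbered mice had deviations from their group means that correlated at r of -0.30 to 0.28. Mice of unlike number were not compared in this way, so these values do not settle whether the numbers pair mice. With a replicate block the counts were 0 and 95 and the differences of the members -3.67, -1.20 and -0.03. The r of Retn with the adipocyte mean was 0.71 to 0.87 over 12 alternatives, each mouse left out giving 0.71 to 0.84. Retnlg and probe set means of the members could not give an alternative, with no probe set that carries the symbol Retnlg alone and 1 for each other member.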
